A study of Mus musculus with 6 samples.

Results

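The 10 genes described here encode integrin subunits of T cells and cell surface ligands of integrins, taken by their symbols from the 22095 gene rows of the deposited table. There are 4 α subunits (Itgal, Itga4, Itgae and Itgav), 4 β subunits (Itgb2, Itgb1, Itgb7 and Itgb3) and the ligands Icam1 and Icam2. The RNA came from mouse CD8 T cells, which become killer cells after activation. The tested cells had been activated in the presence of 10 nM ponatinib, a kinase inhibitor first made against BCR-ABL (3 libraries), and the controls in the presence of the solvent DMSO (3 libraries). In both groups the cells were wild type, had been purified as naive cells from C57BL/6 spleens, and had been kept for 48 h in RPMI medium with serum, recombinant mouse IL-2 and CD3 and CD28 antibodies, a stand-in for antigen and costimulation. Age, sex and the number of mice are not in the labels, nor is whether replicates were separate mice or cultures. The p-values therefore speak of the spread among these 6 samples alone, and that spread may be technical.

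Integrins are cell surface receptors made of an α and a β subunit that hold cells to other cells and to the matrix between them. On resting T cells they bind weakly, and signals from the T cell receptor or from chemokine receptors switch them to a form that binds tightly, through the small GTPase Rap1 and the adaptors talin and kindlin. The αL and β2 chains form LFA-1, the receptor for ICAM proteins that steadies contacts between T cells and other cells. The α4 chain joins β1 to bind VCAM-1, or β7 to bind MAdCAM-1 of gut vessels, and αE joins β7 to form the receptor for E-cadherin of epithelia, known as CD103.

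Levels are in TPM, transcript abundances scaled by length and by the library total, so levels of different genes can be compared. Across genes, which are no independent replicates, Spearman correlations ran to 0.995 to 0.997 between ponatinib libraries, 0.988 to 0.996 between DMSO libraries and 0.965 to 0.980 between a library of each. DMSO replicate 3 stood apart from the other controls, with 4.78% of its TPM in mitochondrially encoded genes against 9.76% and 10.7%, while the ponatinib libraries held 7.16% to 8.19%. All 6 markers listed for CD8 T cells (Cd3e, Cd3d, Cd3g, Cd8a, Cd8b1 and Trac) were present, of which only Cd8a and Cd8b1 encode CD8 chains. Together the 6 reached 1743 to 1990 TPM with ponatinib and 1494 to 1524 TPM with DMSO. By the rule given below, 3 of them were called higher and 0 lower, where 23.9% of all tested genes were higher and 9.54% lower. In such bulk samples, fewer cells of a type and less RNA per cell cannot be told apart.

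With ponatinib, Itgae rose the most of the 10 genes, to 12.2 ± 3.77 TPM against 0.461 ± 0.243 TPM in DMSO libraries (SD, n = 3 each), and both chains of LFA-1 rose, Itgal by 0.60 and Itgb2 by 0.38 on the log2 scale. Itga4 rose by 0.41. Itgb7, Itgav, Itgb3, Itgb1, Icam1 and Icam2 did not pass the test. A gene was called when its adjusted p was under 0.05 in limma, a linear model with a shared estimate of the spread, fitted on log2(TPM + 1) to the 10039 genes that averaged 1 TPM or more. All 10 genes reached that minimum, Itgae only through the ponatinib libraries. By this rule 4 of the 10 were higher, where 23.9% of all tested genes were higher, and 0 were lower, where 9.54% of all tested genes were lower. At an unadjusted p under 0.05 there were 7 higher and 0 lower. The share of all tested genes at that looser threshold was not counted and is larger than 23.9%, so the 7 cannot be set against it. The groups did not overlap in 5 of the 10 genes, against 49.4% of all tested genes. The median log2 fold change was 0.40 over the 10 genes and 0.09 over all tested genes. That background depends on the scaling: medians of ratios gave 1500 genes higher and 1557 lower, against 2398 and 958 with TPM as deposited, and Itga4 was no longer called. Over all genes, 1406 and 1345 were higher without ponatinib replicate 2 and 3, 1503 without DMSO replicate 1, and 626 were lower without ponatinib replicate 2.

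**Figure D1:**
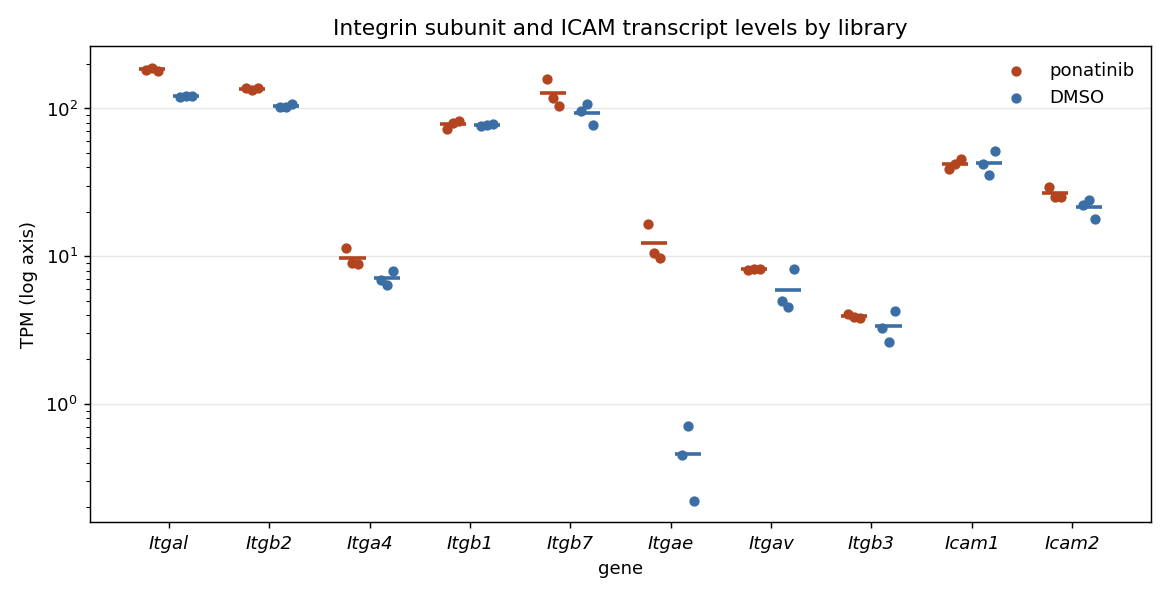
TPM of the 10 genes (log axis) in each of the 3 ponatinib (left of each pair) and 3 DMSO libraries, with the group mean as a bar. Itgal ranges from 181 to 189 TPM in ponatinib libraries and from 120.3 to 122 TPM in DMSO libraries, and Itgae is the gene whose groups lie farthest apart.

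By gene rows, the order of the levels was alike in both groups except for Itgae. With ponatinib the order ran Itgal, Itgb2, Itgb7, Itgb1, Icam1, Icam2, Itgae, Itga4, Itgav and Itgb3, from 184 TPM for Itgal to 3.93 TPM for Itgb3. Neighbours whose libraries overlapped were Itgb2 with Itgb7 and Itgae with Itga4. With DMSO, Itgae came last at 0.461 TPM, below Itgb3 at 3.36 TPM, and the other 9 genes kept their order. There, Itgb2 overlapped with Itgb7, Itgb7 with Itgb1, and Itga4 with Itgav. Once values that the table lists for single transcripts were added, the mean of Itgav was 13.7 TPM with ponatinib and 10.4 TPM with DMSO, which placed it above Itgae and Itga4 with ponatinib and above Itga4 with DMSO.

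The LFA-1 chains had the highest mean among the α and among the β subunits in both groups. Itgal, which encodes αL (ENSMUSG00000030830, plus strand of chromosome 7, 127296260 to 127335138 of GRCm38), stood at 182, 189 and 181 TPM in ponatinib libraries 1, 2 and 3, against 120.3, 122 and 121 TPM in DMSO libraries. Every ponatinib library was above every DMSO library, and replicates of a group lay close together. Its log2 fold change was 0.60 (SE 0.04, adjusted p = 2.26e-04, limma), a mean 1.52 times as high. Itgb2, which encodes β2 (ENSMUSG00000000290, plus strand of chromosome 10, 77530252 to 77565708), stood at 138, 133 and 137 TPM under ponatinib, against 103, 102 and 107 TPM under DMSO. These groups did not overlap either, and the log2 fold change was 0.38 (SE 0.05, adjusted p = 0.00118, limma). Both calls held without any single library and under every other setting tried. The ratio of Itgal to Itgb2 TPM was 1.32, 1.43 and 1.32 with ponatinib, against 1.17, 1.20 and 1.13 with DMSO. The groups did not overlap in this ratio, with or without transcript rows added.

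Icam1 and Icam2 encode ligands of LFA-1 that T cells carry as well. Icam1 is known to be induced by inflammatory signals, whereas Icam2 is made by resting leukocytes and endothelium. Icam1 stood at 39.2, 42.1 and 45.2 TPM in ponatinib libraries, against 42.2, 35.6 and 51.4 TPM in DMSO libraries. The gene spans 21015985 to 21028817 of chromosome 9, plus strand, and shares 511 exonic bases with the antisense gene Gm47079. The control values spanned those of the treated cells. Its log2 fold change was -0.02, with a 95% confidence interval from -0.30 to 0.27 (adjusted p = 0.933, limma), and it was 0.12 without DMSO replicate 3. The gene row of Icam2, at 106377656 to 106388075 of chromosome 11, minus strand, stood at 29.5, 25.3 and 25.02 TPM under ponatinib, against 22.3, 24.2 and 17.9 TPM under DMSO. The groups did not overlap, but the log2 fold change of 0.30 (95% confidence interval 0.03 to 0.57) did not pass the test (adjusted p = 0.0806, limma); it did without DMSO replicate 2 (0.39, adjusted p = 0.0456), while without DMSO replicate 3 the value was 0.18 (adjusted p = 0.108).

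Itgae had the largest difference. The gene (ENSMUSG00000005947) is found at 73090583 to 73147446 of chromosome 11, plus strand. It stood at 16.6, 10.5 and 9.67 TPM in ponatinib libraries, against 0.454, 0.707 and 0.222 TPM in DMSO libraries. The lowest ponatinib library was far above the highest DMSO library, and ponatinib replicate 1 was the highest of all. The mean was 26.5 times as high, and the log2 fold change was 3.16 (SE 0.21, adjusted p = 1.66e-04, limma). Itgae reached the minimum level only through the ponatinib libraries. With no minimum level its adjusted p was 0.00167 (limma). Since the controls were near 0, this value depends on the pseudocount: it was 4.52 with 0.1 and 1.64 with 5, and the call held with both. Without any single library it lay between 2.93 and 3.29. Haspin, the gene of a mitotic histone kinase, lies on the opposite strand within the span of Itgae and shares no annotated exonic base with it. Haspin stood at 17.1, 17.9 and 16.4 TPM under ponatinib, against 16.8, 15.5 and 16.5 TPM under DMSO.

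CD103 is also found on regulatory T cells and on a class of dendritic cells, so markers of other cells were read beside Itgae. To set beside the calls in each marker list, 23.9% of all tested genes were higher and 9.54% lower. Summed, the 4 markers of CD4 T cells came to 19.7, 17.8 and 16.4 TPM in ponatinib libraries, against 5.21, 5.27 and 9.53 TPM with DMSO, and 3 of them were called higher and 1 lower. Among them Foxp3, the defining factor of regulatory T cells, stood at 10.4, 6.78 and 7.22 TPM in ponatinib libraries, against 1.21, 1.37 and 0.778 TPM in DMSO libraries. Cd4 stood at 4.57, 5.32 and 4.23 TPM in ponatinib libraries, against 0.713, 1.20 and 2.84 TPM in DMSO libraries. Both were higher with ponatinib in every library and far below Cd8a, at 331 to 371 TPM with ponatinib and 227 to 245 TPM with DMSO. Zbtb7b was the marker called lower. It stood at 1.03, 1.10 and 0.979 TPM in ponatinib libraries, against 2.48, 1.46 and 4.64 TPM in DMSO libraries. The 6 dendritic cell markers summed to 1.21 to 1.94 TPM with ponatinib and 0.912 to 1.20 TPM with DMSO. Itgax, under the minimum level, stood at 0.265, 0.376 and 0.123 TPM in ponatinib libraries, against 0.0359, 0.0124 and 0.0200 TPM in DMSO libraries. Its groups did not overlap, and Siglech was listed at 0. Of the 9 B cell markers 3 were tested and 2 called higher. Cd79a, at 2.45, 2.73 and 2.57 TPM with ponatinib and 0.336, 0.192 and 2.03 TPM with DMSO, reached the minimum level only through the ponatinib libraries. The B cell list summed to 154 to 175 TPM with ponatinib and 139 to 166 TPM with DMSO, most of it Ighm. Markers of erythroid cells summed to 3.72 to 7.78 TPM with ponatinib and 0.797 to 1.74 TPM with DMSO, with 1 of 2 tested called higher. Those of myeloid cells summed to 3.14 to 6.22 TPM with ponatinib and 2.16 to 4.76 TPM with DMSO. Of these only Mpeg1 was tested, and it was called lower, at 0.966 to 1.15 TPM with ponatinib and 1.66 to 4.29 TPM with DMSO. Lyz2 went the other way, at 1.13 to 2.81 TPM with ponatinib and 0.0422 to 0.260 TPM with DMSO. Cd14, Fcgr3 and S100a8, all under 1 TPM, were higher in every ponatinib library than in any DMSO library, while the rest overlapped. NK cell markers summed to 48.1 to 59.7 TPM with ponatinib and 67.8 to 114 TPM with DMSO. The NK list had 1 marker called lower, Klrk1, at 14.4 to 17.3 TPM with ponatinib and 49.6 to 83.5 TPM with DMSO, and 1 called higher, Eomes, at 33.0 to 42.0 TPM with ponatinib and 18.2 to 30.3 TPM with DMSO. CD8 T cells are known to express both. The remaining markers of this list, Ncr1, Klrb1c and Klra8, stayed at or below 0.446 TPM in all 6 libraries. Even so, Ncr1 and Klrb1c were higher in every treated library than in any control, opposite to the sum. Ncr1 ranged from 0.102 to 0.229 TPM in treated cells and was listed at 0 in each control. Klrb1c ranged from 0.048 to 0.446 TPM in treated cells, and no control exceeded 0.0191 TPM. For Klra8 the groups overlapped. The part of these markers in the change of Itgae was not tested.

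The β7 chain, partner of αE and of α4, was less uniform. Itgb7, at 102215995 to 102231944 of chromosome 15, minus strand, stood at 158, 118 and 105 TPM in ponatinib libraries, against 96.5, 106 and 77.4 TPM in DMSO libraries. Ponatinib replicate 1 was the highest, as for Itgae, and ponatinib replicate 3 lay below DMSO replicate 2. The log2 fold change of 0.43 (95% confidence interval 0.05 to 0.80) did not pass the test (adjusted p = 0.0773, limma), and it was 0.26 without ponatinib replicate 1. The ratio of Itgae to Itgb7 TPM was 0.105, 0.0886 and 0.0924 with ponatinib, against 0.00471, 0.00664 and 0.00287 with DMSO. Every ponatinib library was above every DMSO library in this ratio.

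Itga4, which encodes α4 (plus strand of chromosome 2, 79255426 to 79333123), stood at 11.4, 9.02 and 8.89 TPM under ponatinib, against 6.89, 6.39 and 7.97 TPM under DMSO. The groups did not overlap, though the lowest ponatinib and the highest DMSO library were close. Its log2 fold change was 0.41 (SE 0.12, adjusted p = 0.0328, limma). The call was lost in 5 of the 6 fits that left out 1 library, with adjusted p from 0.0583 to 0.0985, and held without DMSO replicate 3 (0.00990). Medians of ratios also lost it (0.0553), as did a fit with no minimum level (0.0693). In the annotation used, exons of Itga4 share 1124 bases with Cerkl on the opposite strand, which stood at 0.710 to 0.903 TPM with ponatinib and 0.440 to 0.796 TPM with DMSO; the sources used here do not say whether reads were assigned by strand. Itgb1, which encodes β1 (plus strand of chromosome 8, 128685654 to 128733200), stood at 73.1, 80.01 and 81.7 TPM under ponatinib, against 75.8, 77.2 and 78.03 TPM under DMSO. The libraries of both groups were interleaved, and the log2 fold change was 0.02 (95% confidence interval -0.11 to 0.15, adjusted p = 0.803, limma); it was -0.07 with medians of ratios.

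RefSeq promoter windows of GRCm38.p6, from 250 bases before to 50 bases after a gene's start, were at hand for 5 of the 10 genes (Itga4, Itgb1, Itgb7, Itgav and Icam1). Those of Itga4 and Itgb7, which encode the chains of the gut homing integrin α4β7, are shown because RUNX and ETS factors are known regulators of T cell genes. Each window was searched on both strands for TGTGGT, the core site of RUNX factors, and for GGAAGT, a core site of ETS factors, and these matches, which do not overlap, are in capitals. CAGAC, a SMAD site, was searched as well and is left in lower case. The Itga4 window lies at chr2:79255176-79255475 on the plus strand and the Itgb7 window at chr15:102231886-102232185 on the minus strand, both written 5′ to 3′ along the gene.
Itga4: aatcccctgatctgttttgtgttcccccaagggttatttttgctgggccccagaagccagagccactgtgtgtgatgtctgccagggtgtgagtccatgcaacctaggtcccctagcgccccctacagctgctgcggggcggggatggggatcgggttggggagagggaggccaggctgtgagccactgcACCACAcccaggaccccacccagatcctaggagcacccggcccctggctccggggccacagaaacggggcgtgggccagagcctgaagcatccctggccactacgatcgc
Itgb7: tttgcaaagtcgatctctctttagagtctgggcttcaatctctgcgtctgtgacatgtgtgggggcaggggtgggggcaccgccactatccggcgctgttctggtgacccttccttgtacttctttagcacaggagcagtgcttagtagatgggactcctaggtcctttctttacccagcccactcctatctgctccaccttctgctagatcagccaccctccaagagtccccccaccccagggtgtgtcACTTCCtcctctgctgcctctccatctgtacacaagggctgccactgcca
The Itga4 window held 1 RUNX match, on the opposite strand, beginning at -60 relative to the start, and 0 ETS matches. The Itgb7 window held 1 ETS match on the opposite strand, at offset 0 from the start, and 0 RUNX matches. Among all 32851 windows of this length, 16.8% held the RUNX letters, 23.8% the ETS letters and 49.6% the SMAD letters. The SMAD letters stood 1 time in the Itga4 window, 2 times in that of Itgb7, 3 times in Itgb1, 1 time in Icam1 and 0 times in Itgav. Itgav held 2 ETS matches and 0 RUNX matches, and the windows of Itgb1 and Icam1 held neither RUNX nor ETS letters.

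The vitronectin receptor chains were low. Itgav, which encodes αv (plus strand of chromosome 2, 83724397 to 83806916, with 634 exonic bases shared with the antisense gene Gm13684), stood at 8.07, 8.18 and 8.24 TPM in ponatinib libraries, against 4.96, 4.51 and 8.25 TPM in DMSO libraries. DMSO replicate 3 was level with the treated cells and the other controls were lower. Its log2 fold change of 0.45 (SE 0.18, adjusted p = 0.0950, limma) did not pass the test, and it was 0.68 without DMSO replicate 3 (adjusted p = 5.79e-04). Itgb3, which encodes β3 and is best known from platelets (plus strand of chromosome 11, 104608000 to 104670476), stood at 4.05, 3.88 and 3.84 TPM under ponatinib, against 3.25, 2.61 and 4.23 TPM under DMSO. DMSO replicate 3 was again the highest control and was above every ponatinib library. The log2 fold change was 0.19 (SE 0.14, adjusted p = 0.328, limma), with 0.33 without DMSO replicate 3 (adjusted p = 0.0350) and 0.06 without DMSO replicate 2 (adjusted p = 0.742). Of the 6 platelet and megakaryocyte markers, Gp1ba and Gp9 were listed at 0 in every library, and the list summed to 0.431 to 0.930 TPM with ponatinib and 0.0295 to 0.248 TPM with DMSO, under the level of Itgb3 in each.

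**Figure D2:**
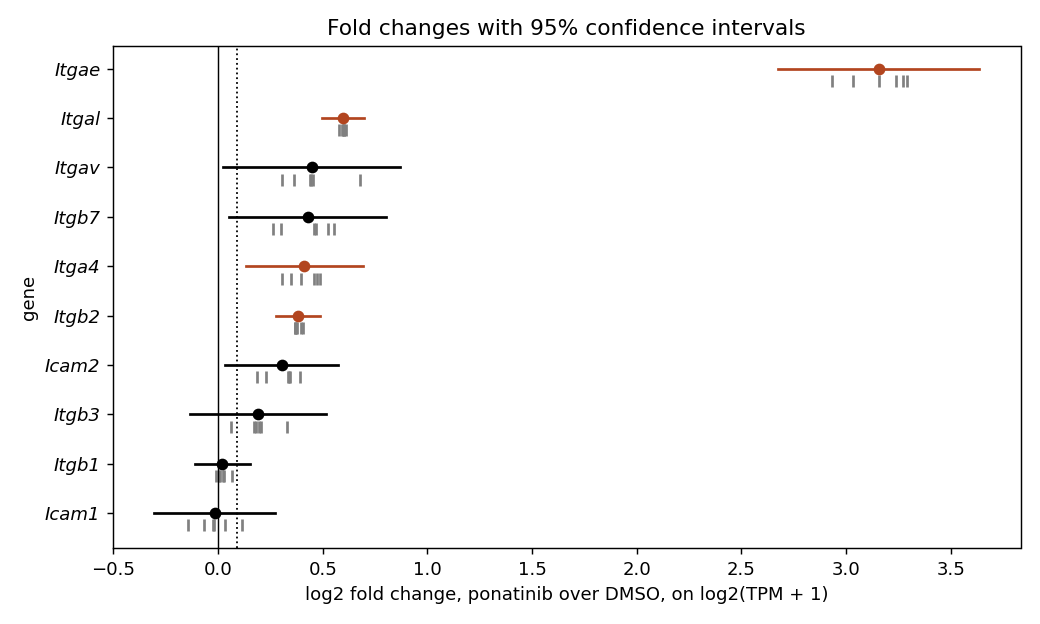
Log2 fold change of ponatinib over DMSO for the 10 genes (points) with 95% confidence intervals (lines), coloured where called higher, with grey ticks for the 6 fits that each left out 1 library. The dotted line is the median of all tested genes at 0.09, and the interval of Itgae runs from 2.68 to 3.64.

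Summed over the 4 α subunits, the level was 218, 217 and 207 TPM in ponatinib libraries, against 133, 134 and 137.5 TPM in DMSO libraries, and over the 4 β subunits 373, 335 and 327 TPM in ponatinib libraries, against 278, 288 and 267 TPM in DMSO libraries. Neither sum overlapped between the groups. Itgal made up 83.5% to 87.2% of the α sum with ponatinib and 88.1% to 91.3% with DMSO, while Itgae made up 4.66% to 7.59% with ponatinib and 0.161% to 0.528% with DMSO. Among β subunits, the share of Itgb1 was 19.6% to 24.97% with ponatinib and 26.8% to 29.2% with DMSO. The shares of Itgb2 and Itgb7 overlapped between the groups, and with transcript rows added those of Itgal and Itgb1 did too. These sums describe transcripts and not the paired receptors at the cell surface.

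**Figure D3:**
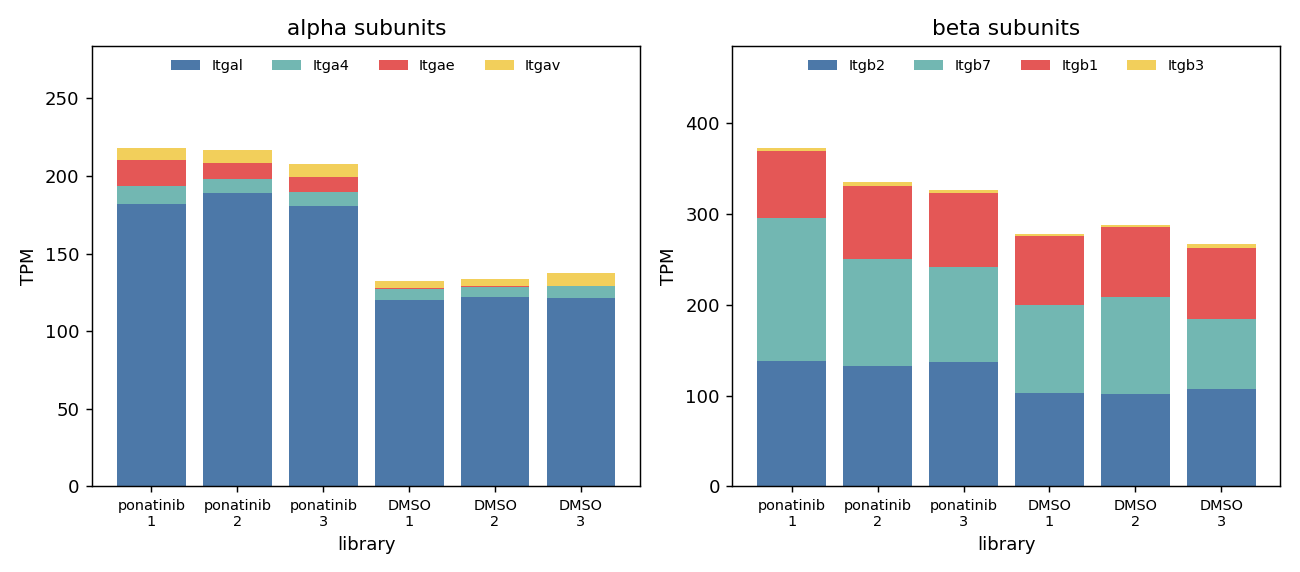
TPM of the 4 α subunits (left) and the 4 β subunits (right), stacked for each of the 3 ponatinib and 3 DMSO libraries. Itgal makes up at least 83.5% of every α bar, and the Itgae layer is visible in the ponatinib libraries.

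The other 18 integrin subunit genes of the mouse were all in the table, and the 8 chosen here held 96.0% to 96.2% of all integrin TPM with ponatinib and 94.3% to 95.5% with DMSO. Only Itga3, Itga5 and Itga6 of the 18 reached the minimum level, and 0 of these 3 were called in either direction (limma; 0 higher and 1 lower at an unadjusted p under 0.05). That count depended on the setting. With medians of ratios 1 was lower, as without the trend term (over all genes 1557 and 939 were lower). Without DMSO replicate 3, 1 was higher (over all genes 3534 were). With no minimum level 15 of the 18 were tested, of which 1 was higher and 1 lower (over all genes 2297 and 940 of 15090). Itga7, under the minimum level, stood at 0.0635, 0.0441 and 0.0372 TPM under ponatinib, against 0.795, 0.763 and 1.20 TPM under DMSO. Its groups did not overlap. Itga6, a laminin receptor chain and the most abundant of them, stood at 17.0, 16.2 and 16.3 TPM under ponatinib, against 14.8, 13.6 and 15.4 TPM under DMSO. It did not pass the test (adjusted p = 0.117, limma).

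Beside gene rows the table lists single transcripts in rows of their own, and their values are not part of the gene rows. For Icam2 these rows held more than the gene row did, 57.5% to 60.3% of the sum in each library. Most of it was the transcript ENSMUST00000106813, at 40.5, 34.4 and 28.7 TPM under ponatinib, against 29.6, 34.5 and 21.8 TPM under DMSO, and these groups overlapped. It has 4 exons and 574 bases in the annotation, and it starts 5291 bases upstream of ENSMUST00000001055, at exon 1 from 106388047 to 106388072 of chromosome 11, on the minus strand. With transcript rows added, Icam2 stood at 64.5 ± 7.55 TPM under ponatinib, against 52.5 ± 9.49 TPM under DMSO (SD, n = 3 each), and the log2 fold change was 0.30 (adjusted p = 0.132, limma). By this sum the mean of Icam2 lay above that of Icam1 in both groups, whereas its gene row lay below it.

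Transcript rows were a smaller part of the β chains. For Itgb2 they held 8.64% to 17.0% of the sum, most of it ENSMUST00000130059, which has 5 exons and 630 bases in the 5′ part of the gene, from 77530370 to 77548672. That transcript stood at 22.9, 21.1 and 15.2 TPM under ponatinib, against 10.6, 9.33 and 7.27 TPM under DMSO, and the groups did not overlap. Adding these rows, the log2 fold change of Itgb2 was 0.46. For Itgav they held 33.3% to 47.7% of the sum, for Itgb7 6.96% to 14.3% and for Itgb1 0% to 9.49%. The Itgb1 transcript ENSMUST00000124826 stood at 3.83, 8.39 and 7.99 TPM under ponatinib, against 3.46, 0 and 0 TPM under DMSO. It is annotated under nonsense-mediated decay and not as protein coding, and it was the only Itgb1 transcript row above 0. Itgal, Itga4, Itgae, Itgb3 and Icam1 had 0 transcript rows, so their gene rows are all the table holds for them.

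**Figure D4:**
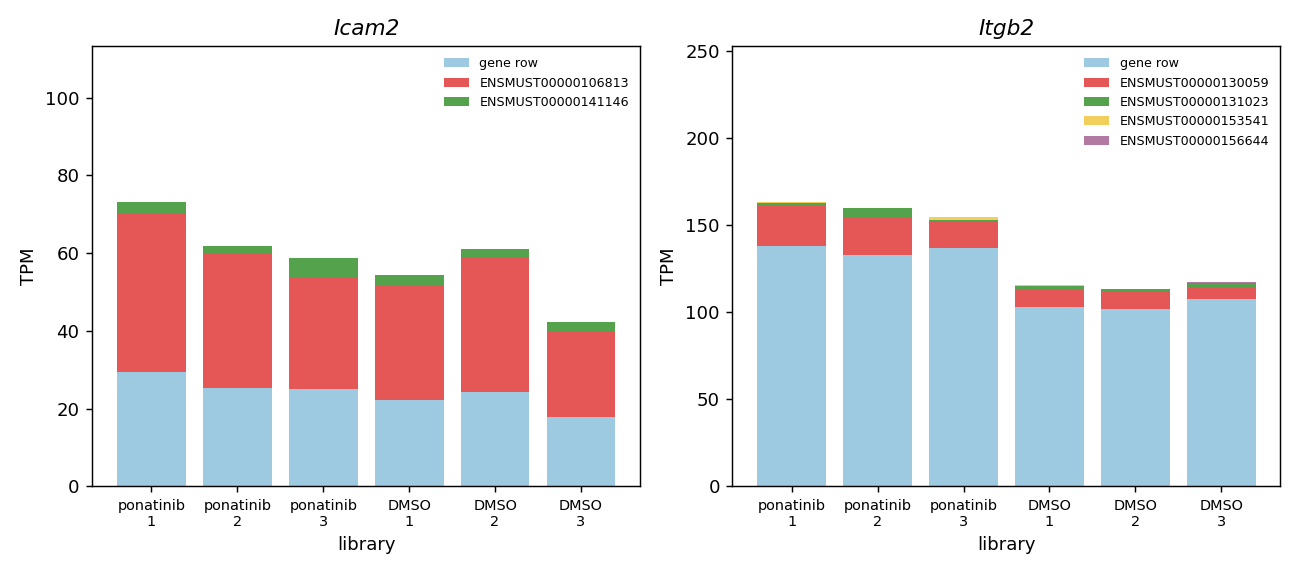
TPM of the gene row and of the transcript rows of Icam2 (left) and Itgb2 (right), stacked for the 3 ponatinib and 3 DMSO libraries. ENSMUST00000106813 exceeds the Icam2 gene row in every library, and ENSMUST00000130059 of Itgb2 is higher in each ponatinib library than in any DMSO library.

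Values with ± in the gene lists are means and SD (n = 3 each). All lists were chosen with earlier results of these data known, so their counts beside those of all tested genes only describe. Of 20 tested genes of Rap1, talin and kindlin signalling, which switch integrins to their binding form, 11 were higher and 0 lower (0 also at an unadjusted p under 0.05), with a median log2 fold change of 0.36, beside 23.9% of all tested genes higher and a median of 0.09. Apbb1ip, which encodes the Rap1 effector RIAM, stood at 88.3, 80.7 and 82.2 TPM under ponatinib, against 50.6, 51.9 and 56.4 TPM under DMSO. Every ponatinib library was above every control (log2 fold change 0.65, SE 0.06, adjusted p = 5.49e-04, limma). Rassf5, which encodes the effector RAPL that binds αL, reached 82.1 ± 2.49 TPM under ponatinib, against 54.1 ± 3.43 TPM under DMSO. Prkd2, a protein kinase D gene, reached 60.9 ± 3.57 TPM with ponatinib and 38.4 ± 2.05 TPM with DMSO, and Cyth1, whose product cytohesin-1 binds the β2 tail, reached 48.4 ± 2.67 TPM with ponatinib and 30.4 ± 2.89 TPM with DMSO. Rapgef1, an exchange factor for Rap1, rose by 0.39 on the log2 scale. Among core genes picked after seeing their values, 3 did not pass the test: Rap1a at 101 ± 6.96 TPM with ponatinib and 95.6 ± 3.15 TPM with DMSO, Rap1b at 200.4 ± 4.25 TPM with ponatinib and 193 ± 14.2 TPM with DMSO, and Fermt3, the kindlin of blood cells, at 149 ± 2.36 TPM with ponatinib and 150.2 ± 8.41 TPM with DMSO.

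Among genes that link integrins to actin and to focal adhesion kinases, 9 of 22 tested were higher and 2 lower, with a median of 0.16, where 23.9% of all tested genes were higher and 9.54% lower. The lower count is near that background. Medians of ratios gave 5 and 2 (over all genes 1500 and 1557 of 10045). Leaving out ponatinib replicate 1 or 2 gave 5 and 2 as well (over all genes 1738 and 641 of 10037, and 1406 and 626 of 10043). Zyx, encoding zyxin, stood at 87.3, 87.1 and 80.9 TPM under ponatinib, against 52.4, 57.4 and 54.4 TPM under DMSO (log2 fold change 0.63, adjusted p = 4.97e-04, limma). Nedd9, the docking protein Cas-L of lymphocytes, reached 24.1 ± 1.07 TPM with ponatinib and 16.5 ± 0.812 TPM with DMSO, and the kinase gene Ptk2b, which encodes Pyk2, reached 54.5 ± 2.62 TPM with ponatinib and 42.9 ± 3.13 TPM with DMSO. Actn4 rose by 0.29 and Arhgef6 by 0.30; Actn4 was not called with medians of ratios (adjusted p = 0.0901, limma) nor Arhgef6 with transcript rows added (adjusted p = 0.113, limma). Vcl, encoding vinculin, was lower, at 1.34, 1.72 and 2.04 TPM under ponatinib, against 3.99, 3.65 and 4.07 TPM under DMSO, and so was Tes, at 89.4 ± 4.65 TPM with ponatinib and 122.5 ± 16.1 TPM with DMSO.

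Membrane proteins that associate with integrins went both ways, with 2 higher and 4 lower among 12 tested, where 23.9% of all tested genes were higher and 9.54% lower. Their median log2 fold change was -0.16, and -0.03 without DMSO replicate 3. The tetraspanin gene Cd37 reached 86.4 ± 5.19 TPM under ponatinib, against 61.2 ± 2.43 TPM under DMSO, and Tspan32 reached 16.8 ± 0.938 TPM with ponatinib and 12.3 ± 1.54 TPM with DMSO. Bsg, encoding basigin, fell to 412 ± 18.2 TPM under ponatinib, against 633 ± 43.1 TPM under DMSO (log2 fold change -0.62, adjusted p = 5.91e-04, limma). Slc3a2, encoding the CD98 heavy chain, which binds β1 and β3 tails and carries amino acid transporters, fell to 168 ± 10.2 TPM with ponatinib and 285 ± 54.5 TPM with DMSO. Cd47, a partner of αvβ3, fell to 226 ± 2.46 TPM with ponatinib and 325 ± 55.3 TPM with DMSO, and the tetraspanin gene Cd53 fell by 0.40 on the log2 scale. DMSO replicate 3 was the highest of all 6 libraries for Slc3a2, Cd47 and Cd53, and each of these genes was still called lower without it. Cd53 was not called when ponatinib replicate 2 or 3 was left out (adjusted p of 0.0708 and 0.0724, limma) or with no minimum level (0.0509), nor Tspan32 when ponatinib replicate 1 or 3 was (0.0570 and 0.0541).

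Of 21 other integrin ligands, 6 reached the minimum level, 0 were called higher (0 also at an unadjusted p under 0.05) and 2 lower, Cd47 and the laminin chain gene Lamc1, at 6.43 ± 0.364 TPM with ponatinib and 10.4 ± 2.30 TPM with DMSO. Over all tested genes 23.9% were higher and 9.54% lower. Quantile normalization gave 4 of these ligands lower, where over all genes 1446 of 10039 were lower. The Lamc1 call was lost without ponatinib replicate 1 (adjusted p = 0.0555, limma). Adhesion receptors of T cells that are not integrins showed 6 of 16 tested higher and 3 lower, with a median of 0.22, where 23.9% of all tested genes were higher and 9.54% lower. Cd226 and Cd96, which bind nectins and their relatives, reached 71.5 ± 4.32 and 59.4 ± 3.42 TPM under ponatinib, against 40.2 ± 3.62 and 32.6 ± 4.51 TPM under DMSO. Alcam, the ligand of CD6, and Crtam rose by 0.58 and 1.12 on the log2 scale, and Spn, encoding CD43, by 0.28, a call lost with medians of ratios (adjusted p = 0.0952, limma). Cd2, the receptor for CD48 in the mouse, fell to 240.4 ± 5.53 TPM with ponatinib and 420 ± 83.1 TPM with DMSO, Cd24a to 11.5 ± 1.59 TPM with ponatinib and 24.1 ± 3.91 TPM with DMSO, and Jaml, a junctional adhesion receptor, to 28.8 ± 3.60 TPM with ponatinib and 47.8 ± 11.4 TPM with DMSO. Leaving out ponatinib replicate 2 or 3 lost the Jaml call (0.0504 and 0.0592, adjusted p, limma).

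TGF-β is known to induce Itgae in CD8 T cells, and a list of its receptors, SMAD proteins and transcription factors, with genes of tissue residency, had 18 tested genes, of which 10 rose and 2 fell, where 23.9% of all tested genes were higher and 9.54% lower, a share near that of the 2. Their median log2 fold change was 0.56, but 0.37 with a pseudocount of 5 and 0.18 over the 11 genes that reached 10 TPM. Tgfbr2, the ligand-binding receptor chain, stood at 30.7, 27.7 and 26.1 TPM under ponatinib, against 15.0, 16.0 and 18.6 TPM under DMSO. The groups were far apart (log2 fold change 0.74, SE 0.10, adjusted p = 0.00159, limma). Smad3, a signal transducer of that receptor, stood at 14.4, 12.9 and 12.7 TPM under ponatinib, against 6.21, 6.82 and 6.83 TPM under DMSO. Cxcr6, a chemokine receptor of tissue-resident T cells, stood at 20.1, 15.6 and 14.0 TPM under ponatinib, against 3.02, 3.20 and 1.86 TPM under DMSO. S1pr1 and Klf2, which favour exit from tissues, rose as well, by 2.98 and 1.80 on the log2 scale. Ponatinib replicate 1 was the highest library for Tgfbr2, Smad3, Cxcr6, S1pr1 and Klf2, as it was for Itgae. Tbx21 and Runx3 were the members called lower, Tbx21 with a log2 fold change of -0.54. Runx3, a factor of the CD8 lineage, stood at 32.8 ± 0.726 TPM under ponatinib, against 42.2 ± 7.12 TPM under DMSO (adjusted p = 0.0420, limma). Its call was lost without any of the ponatinib libraries (0.102 to 0.118), without DMSO replicate 1 (0.0556), with no minimum level (0.0825) and without the trend term (0.0610). With DMSO replicate 3 left out, 12 of the list were higher and 3 lower, where over all genes 3534 of 10016 were higher and 1011 lower.

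**Figure D5:**
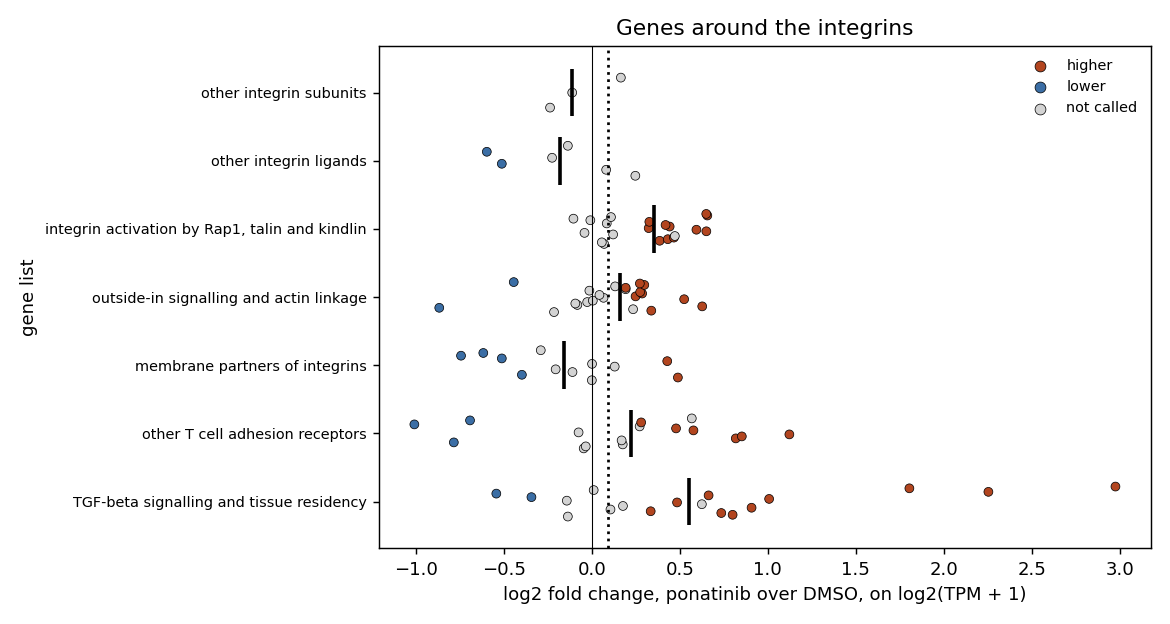
Log2 fold change of ponatinib over DMSO for the tested genes of each list (points, red where called higher, blue where called lower, grey where not called), with the list median as a black bar and the median of all tested genes, 0.09, as a dotted line. The Rap1, talin and kindlin list has 11 genes called higher and 0 lower, while membrane partners lie on both sides.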

How the data were processed

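RNeasy Plus Micro extraction and a NEBNext Ultra II RNA library kit are named by the labels' protocols. The authors deposited 1 table with a column per library. Each column sums to 1000000, so the deposited values were read as TPM, although the table is named for normalized counts. Fastp 0.19.5, Salmon 1.5.1, DESeq2 1.22.1 and GRCm38 are listed in the submitters' processing notes with no roles. TPM keep no depth, so reads per library are unknown and precision rests on 3 replicates per group.

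The table has 22095 gene rows, which were used, and 20977 transcript rows, which an alternative added to their gene. GENCODE mouse release 21 gave names and coordinates (22011 gene rows matched) and RefSeq gave promoters.

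Genes with a mean of 1 TPM or more were compared by limma 3.58.1 (lmFit, eBayes with trend; R 4.3.3) on log2(TPM + 1), a scale on which changes of low genes look smaller. Tests were two-sided with Benjamini-Hochberg adjustment over all tested genes, and the procedure was tested on simulated data. Alternatives changed the pseudocount, minimum level, scaling, empirical Bayes settings or rows, added a replicate block, or left out a library. The 10 genes and all lists were chosen with earlier results of these data known. Beyond the 10, markers and overlapping genes, named genes are up to 5 called genes per list and direction with the smallest p, unless stated. Sums, shares and ratios had no test.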

Additional observations from a re-analysis of the deposited data

How the results depend on the processing

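Itgal, Itgb2 and Itgae kept their direction and their call under all alternatives that tested them; Itgae is not among the genes tested at a minimum mean of 10 TPM. There the 10 genes gave 2 higher calls, since Itga4 and Itgae were no longer tested. Over fits that left out 1 library, 3 to 6 of the 10 were called higher and 0 lower, and over all genes 1345 to 3534 were higher and 626 to 1011 lower. With medians of ratios 1500 genes were higher and 1557 lower, and with quantile normalization 1446 were lower. The log2 fold change of Itgb1 was -0.0708 with medians of ratios, -0.0513 with quantile normalization and -0.0098 to 0.069 with 1 library left out. With transcript rows added, of which only that annotated under nonsense-mediated decay was above 0, the Itgb1 value was 0.116 (adjusted p = 0.231, limma). The log2 fold change of Icam1 was -0.14 to 0.12 with 1 library left out. Over all alternatives, 140 log2 fold changes of the 10 genes kept direction and side of the threshold, 7 lost a call (all Itga4), 4 gained one and 5 changed sign. At a minimum mean of 10 TPM the TGF-β list had 5 higher and 2 lower of 11 tested, where over all genes 1931 of 6466 were higher and 639 lower. Replicates with the same number did not deviate together (correlations of -0.0349, 0.0563 and 0.0052 for numbers 1, 2 and 3), and not every library correlated best with its own number. These values show no strong effect shared by number. They cannot tell whether libraries of the same number shared a mouse or a preparation. With a replicate block 2300 genes were higher and 922 lower. Of the 10 genes 5 were then higher, Itgb7 being added (adjusted p = 0.0236, limma). Limits are the 3 libraries per group, the unknown depth and the low level of Itgae in the controls.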
